A study of Mus musculus with 6 samples.

Results

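The 9 genes described here are the epithelial-mesenchymal transition (EMT) transcription factor genes Snai1, Snai2, Twist1, Twist2, Zeb1 and Zeb2, the vimentin gene Vim, and the cadherin genes Cdh1 and Cdh2. They were chosen by symbol. All 9 were found among the 55367 gene rows of the deposited table, and 8 of them passed the filter on low values, a mean of at least 10 reads. Transcript levels were measured by RNA sequencing in LLC cells, a wild-type mouse line from a Lewis lung carcinoma, grown in DMEM with fetal bovine serum. The 3 DMSO libraries came from cells that received the solvent for 46 h, and the 3 STM2457 libraries from cells that received 5 µM STM2457 for the same time. STM2457 is a small molecule inhibitor of METTL3, whose enzyme activity adds N6-methyladenosine (m6A) to RNA. The comparison asks which transcripts differ when that activity is inhibited. Nothing in the labels ties the libraries to separate cultures, and the p-values therefore cover the spread among these libraries alone, which could be technical.

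The libraries held 17671719 to 17917199 reads in genes, recovered from the deposited log2 values. A normalised read below is a recovered read divided by the size factor of its library. Of 12618 genes tested with limma, 56.3% passed at an adjusted p under 0.05, with 30.7% higher and 25.7% lower after STM2457. With each library centred on its upper quartile, 2819 genes were higher and 4814 lower, against 3868 and 3240 without centring. For Mettl3 the DMSO libraries averaged 537 ± 66.0 normalised reads and the STM2457 libraries 488 ± 32.5 (SD, n = 3), which did not pass (limma adjusted p = 0.15). Its exons overlap those of Tox4, which runs in the opposite direction.

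In EMT, epithelial cells loosen their junctions and take on a motile, spindle-shaped form. SNAI1 and SNAI2 are zinc-finger repressors and ZEB1 and ZEB2 zinc-finger homeobox repressors, which bind E-box motifs in the promoters of epithelial genes such as Cdh1. TWIST1 and TWIST2 are basic helix-loop-helix factors that drive mesenchymal genes. CDH1 (E-cadherin) joins epithelial cells to each other, CDH2 (N-cadherin) takes its place in mesenchymal and neural cells, and vimentin forms the intermediate filaments of mesenchymal cells. Carcinoma lines can express these factors in many combinations.

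Twist1 and Twist2 encode close relatives and both rose after STM2457, so the coding stretch in which they are most alike is shown from the GENCODE M21 transcripts (GRCm38). Capitals mark the longest run of identical bases, 23 in all. The Twist1 stretch lies at chr12:33958360-33958422 on the plus strand, and the Twist2 stretch at chr1:91801871-91801933 on the plus strand.
Twist1: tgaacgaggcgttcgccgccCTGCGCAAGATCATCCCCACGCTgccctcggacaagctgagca
Twist2: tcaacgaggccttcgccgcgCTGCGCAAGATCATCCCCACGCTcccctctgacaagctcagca
Of 572 windows of 50 bases in the Twist1 coding sequence, 0 occur in that of Twist2. The longest shared run was 22 bases between Snai1 and Snai2, 23 between Zeb1 and Zeb2 and 26 between Cdh1 and Cdh2, with 0 shared windows of 50 bases in each pair.

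RefSeq promoters (GRCm38.p6, from 250 bases before to 50 after the start site) were found for 5 of the 9 genes: Snai1, Twist1, Twist2, Zeb2 and Vim. Not matched were Snai2, Zeb1, Cdh1 and Cdh2. The promoters of Twist1 (chr12:33957421-33957720) and Twist2 (chr1:91801211-91801510) are shown because both genes rose, and that of Snai1 (chr2:167537945-167538244) because it holds the E-box form that SNAIL and ZEB proteins prefer. All 3 lie on the plus strand. Capitals mark CCAAT or its reverse complement ATTGG, and E-boxes (CANNTG, which reads as CANNTG on the other strand too).
Twist1: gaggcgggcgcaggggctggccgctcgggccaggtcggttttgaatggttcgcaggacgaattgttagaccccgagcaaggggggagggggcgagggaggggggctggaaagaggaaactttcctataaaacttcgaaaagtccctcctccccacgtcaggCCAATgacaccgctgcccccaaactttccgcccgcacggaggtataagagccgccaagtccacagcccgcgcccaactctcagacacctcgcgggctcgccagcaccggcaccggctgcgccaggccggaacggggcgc
Twist2: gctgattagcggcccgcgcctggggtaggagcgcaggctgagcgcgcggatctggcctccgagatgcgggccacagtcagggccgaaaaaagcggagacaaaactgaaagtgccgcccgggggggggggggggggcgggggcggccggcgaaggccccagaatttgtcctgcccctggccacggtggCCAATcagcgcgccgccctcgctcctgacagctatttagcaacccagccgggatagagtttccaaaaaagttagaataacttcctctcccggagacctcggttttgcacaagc
Snai1: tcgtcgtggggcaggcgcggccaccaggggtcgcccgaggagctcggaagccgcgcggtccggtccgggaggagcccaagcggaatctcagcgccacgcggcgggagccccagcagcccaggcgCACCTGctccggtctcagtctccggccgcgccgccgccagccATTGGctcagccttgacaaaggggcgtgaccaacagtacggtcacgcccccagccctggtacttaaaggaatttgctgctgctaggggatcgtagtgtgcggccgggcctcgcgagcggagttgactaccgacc
Each of the 3 holds CCAAT or ATTGG at 1 position, as do 37.4% of 32851 promoters of that length at 1 or more. CANNTG occurs at 1 position in the Snai1 promoter, as CACCTG, and at 0 positions in those of Twist1 and Twist2. Of all promoters 72.3% hold CANNTG, and 20.2% hold CACCTG or its reverse complement CAGGTG. Among 11995 promoters of tested genes, 62.8% hold CANNTG, 16.8% CACCTG or CAGGTG, and 38.4% CCAAT or ATTGG. The promoter of Vim, which fell, is not shown and holds CCAAT or ATTGG at 2 positions and CANNTG at 0. Zeb2 has 4 promoters, each with CANNTG at 0 positions, and the first holds CCAAT or ATTGG at 2.

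METTL3 methylates adenosines in short sequence contexts of which GGACT is a frequent form in messenger RNA. The match in the coding sequence is shown for the 3 genes that have exactly 1, Snai1, Twist1 and Vim, with the motif in capitals, searched on the transcript strand only. The stretches lie at chr2:167538763-167538783, chr12:33958485-33958505 and chr2:13574675-13574695, all on the plus strand.
Snai1: ctcatctgGGACTctctcctg
Twist1: gacgagctGGACTccaagatg
Vim: gactcggtGGACTtctcgctg
Over the whole transcript, Snai1 had 2 matches, Twist1 2, Vim 2, Zeb1 3, Zeb2 9, Cdh2 6 and Cdh1 6. Snai2 and Twist2 had 0. Per kilobase this came to 1.23 in Snai1 and in Twist1, 0.912 in Vim, 0.517 in Zeb1, 0.986 in Zeb2 and 1.24 in Cdh2, against a median of 1.04 over the longest coding transcripts of 11013 tested genes, of which 92.7% had a match. Of the genes that rose, Twist2 had 0 matches, Twist1 2 and Cdh2 6, and of those that fell, Snai2 had 0 and Vim 2. Other sequence contexts that METTL3 methylates were not searched. Whether the matches bear on the changes was not tested. Methylation was not measured in these libraries.

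After STM2457, Twist1, Twist2 and Cdh2 rose, Vim and Snai2 fell, and Snai1, Zeb1 and Zeb2 did not pass the test. Cdh1 had 0 reads in every library. The 5 genes that passed are 62.5% of the 8 tested, close to the 56.3% of all tested genes. In 7 of the 8, all but Zeb2, the DMSO and STM2457 libraries did not overlap, which was so for 61.8% of all tested genes (33.4% higher and 28.4% lower). The changes were small. The median size of the log2 difference in the deposited values was 0.115 over the 8 genes and 0.079 over all tested genes. Those values understate changes, and more so at few reads, so the medians are not alike in shrinkage. In the recovered reads, the quartiles of the log2 fold over all tested genes were -0.208 and 0.216. Snai1, Twist1, Zeb1, Zeb2 and Vim lay between them, and Snai2, Twist2 and Cdh2 outside.

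**Figure D1:**
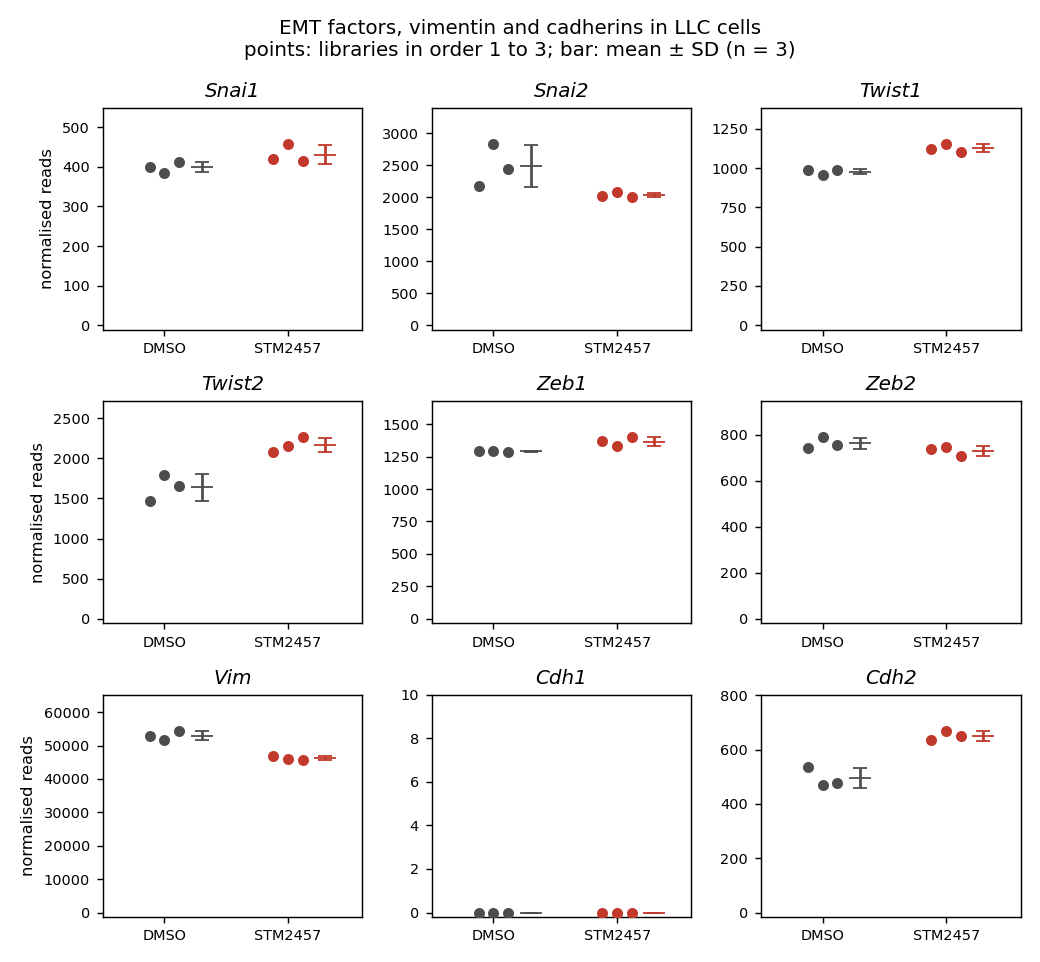
Normalised reads (y axis, from 0) of the 9 genes in the 3 DMSO and 3 STM2457 libraries (points, in the order of the library numbers), with the mean and SD beside them. Twist1, Twist2 and Cdh2 lie higher after STM2457 and Vim and Snai2 lower, with no overlap, while Cdh1 is at 0 in all 6 libraries.

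Of the SNAIL repressors, Snai1 measured 401, 385 and 412 normalised reads in DMSO libraries 1 to 3 and 420, 458 and 415 in STM2457 libraries 1 to 3. The groups did not overlap, but the gap between them was narrower than the spread within the STM2457 group. The fold from the recovered reads was 1.08 (95% interval 0.982 to 1.19), and the gene did not pass (log2 difference 0.05 in the deposited values, SE 0.03, limma adjusted p = 0.16). The gene is on the plus strand of chromosome 2, at 167538195 to 167542814 (GRCm38).

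Snai2, which encodes SLUG, measured 2178, 2836 and 2441 normalised reads in DMSO libraries 1 to 3 and 2018, 2079 and 2010 in the STM2457 libraries. All 3 STM2457 values lay below the lowest DMSO value, and the DMSO libraries were spread far more widely, with DMSO replicate 2 the highest. The mean fell from 2485 ± 331 to 2036 ± 37.9 (SD, n = 3), to 0.824 of the DMSO level (95% interval 0.706 to 0.961, limma log2 difference -0.16, SE 0.05, adjusted p = 0.034). The call was lost without DMSO replicate 3 (adjusted p = 0.084) and without STM2457 replicate 1 (0.085), 2 (0.054) or 3 (0.075). Without DMSO replicate 2 it held, with a smaller log2 difference of -0.10 (adjusted p = 0.0012). Snai2 is on the plus strand of chromosome 16, at 14705852 to 14709385.

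Of the TWIST factors, Twist1 measured 986, 957 and 988 normalised reads in the DMSO libraries and 1120, 1155 and 1106 in the STM2457 libraries. Every STM2457 library lay above every DMSO library, and both groups were tight. The rise was 1.15-fold (95% interval 1.08 to 1.23, log2 difference 0.11, SE 0.02, limma adjusted p = 0.0005). Twist1 is on the plus strand of chromosome 12, at 33957671 to 33959829, and its exons overlap those of no other annotated gene.

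Twist2 measured 1467, 1791 and 1652 normalised reads in the DMSO libraries and 2085, 2151 and 2260 in the STM2457 libraries. The groups did not overlap, and DMSO replicate 2 was again the highest of the controls. The mean rose from 1637 ± 162 to 2165 ± 88.6 (SD, n = 3), or 1.33-fold (95% interval 1.22 to 1.45, log2 difference 0.23, SE 0.03, limma adjusted p = 1.7e-05). Of all tested genes 9.5% had a larger size of log2 difference in the deposited values, which understate changes more at few reads. In the recovered reads its log2 fold of 0.407 lay between the upper quartile (0.216) and the 95th percentile (0.552) of all tested genes. Twist2 is on the plus strand of chromosome 1, at 91801461 to 91848028.

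The exons of Twist2 overlap those of Gm29100, an annotated gene that runs in the opposite direction, over 1477 of their 3174 bases. Gm29100 went the other way, falling from 179 ± 2.80 to 92.0 ± 9.57 normalised reads (SD over 3 libraries, limma adjusted p = 3.4e-08). The sources used here do not say whether reads were counted by strand, so reads of the shared part may have been assigned to either gene or to neither. The part this plays in the rise of Twist2 was not tested.

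Of the ZEB repressors, Zeb1 measured 1290, 1297 and 1283 normalised reads in the DMSO libraries and 1371, 1329 and 1397 in the STM2457 libraries. The groups did not overlap, yet the difference was small, 1.06-fold (95% interval 0.996 to 1.13), and did not pass (log2 difference 0.05, SE 0.02, limma adjusted p = 0.11). Zeb2 measured 742, 787 and 756 normalised reads in the DMSO libraries and 736, 747 and 706 in the STM2457 libraries, and here the groups overlapped. Its fold was 0.958 (95% interval 0.889 to 1.03, log2 difference -0.03, SE 0.03, limma adjusted p = 0.32). Zeb2 passed as lower with each library centred on the upper quartile (adjusted p = 0.034) or on the median (0.043) of the tested genes. Zeb1 is on the plus strand of chromosome 18, at 5591860 to 5775467, and Zeb2 on the minus strand of chromosome 2, at 44983632 to 45117395. Exons of each also overlap a gene that runs in the opposite direction.

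Of the cadherins, Cdh1 had 0 reads in all 6 libraries. A count of 0 allows up to 3 reads per library, which here come to 0.167 to 0.170 CPM (reads scaled to the library total) and cover counting error only. Cdh2 was present and rose. It measured 536, 470 and 477 normalised reads in the DMSO libraries and 634, 668 and 648 in the STM2457 libraries, with no overlap. The mean rose from 494 ± 36.3 to 650 ± 17.1 (SD, n = 3), or 1.32-fold (95% interval 1.21 to 1.44, log2 difference 0.20, SE 0.03, limma adjusted p = 5.3e-06). Per kilobase of exon, Cdh2 was at least 93.4-fold higher in DMSO, and at least 124-fold higher after STM2457, than the level that 3 reads of Cdh1 in each library would give. Cdh1 is on the plus strand of chromosome 8, at 106603351 to 106670246, and Cdh2 on the minus strand of chromosome 18, at 16588877 to 16809246.

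Vim was by far the most abundant of the 9, at rank 16 of the tested genes by mean log2 value. It measured 52706, 51753 and 54322 normalised reads in the DMSO libraries and 46858, 45918 and 45724 in the STM2457 libraries. The groups did not overlap. Vim fell to 0.872 of its DMSO level (95% interval 0.833 to 0.914, log2 difference -0.12, SE 0.02, limma adjusted p = 4.1e-05). It thus moved against Cdh2, Twist1 and Twist2, although all 4 belong to the mesenchymal side of EMT. Vim is on the plus strand of chromosome 2, at 13573927 to 13582826.

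**Figure D2:**
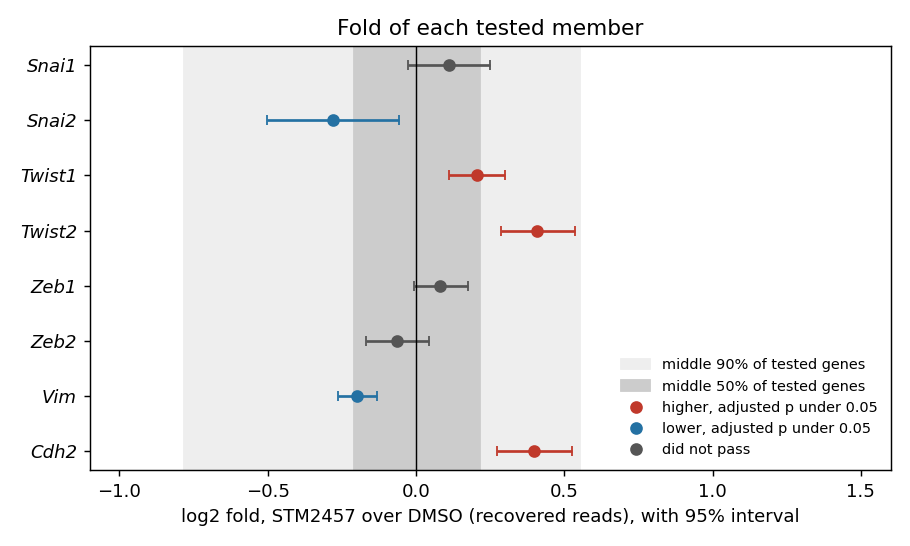
Log2 fold of STM2457 over DMSO from the recovered reads (x axis, with 95% interval) for the 8 tested genes; the shaded bands hold the middle 50% and 90% of all 12618 tested genes. All 8 points lie within the band of the middle 90%, with Twist2 (0.41) and Cdh2 (0.40) farthest to the right and Snai2 (-0.28) farthest to the left.

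Levels of different genes were compared as RPKM, reads scaled to the length of the exons and to the reads in genes of each library. In DMSO the order was Vim (632, from 622 to 645), Snai2 (69.6 ± 9.64), Twist1 (34.0 ± 0.403), Twist2 (29.2 ± 3.02), Snai1 (13.9 ± 0.384), Zeb1 (7.11 ± 0.081), Cdh2 (3.47 ± 0.248) and Zeb2 (2.16 ± 0.0771), with Cdh1 at 0 (± SD for all but Vim, n = 3). No neighbours overlapped between libraries in DMSO. After STM2457 the order was the same, and the only neighbours to overlap were Twist1 (39.0 ± 0.782) and Twist2 (38.4 ± 1.67).

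That order rests on the length assigned to each gene, here the union of all annotated exons, which is long for Zeb2 at 19942 bases. With the length of a single coding transcript, an alternative chosen after seeing the data, Zeb2 rose to 4.73 ± 0.168 in DMSO and stayed below Cdh2. Twist2 (36.7 ± 3.80) then stood above Twist1 in DMSO, with overlapping libraries, and at 48.3 ± 2.09 above Twist1 after STM2457, with none. No other neighbours changed places.

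**Figure D3:**
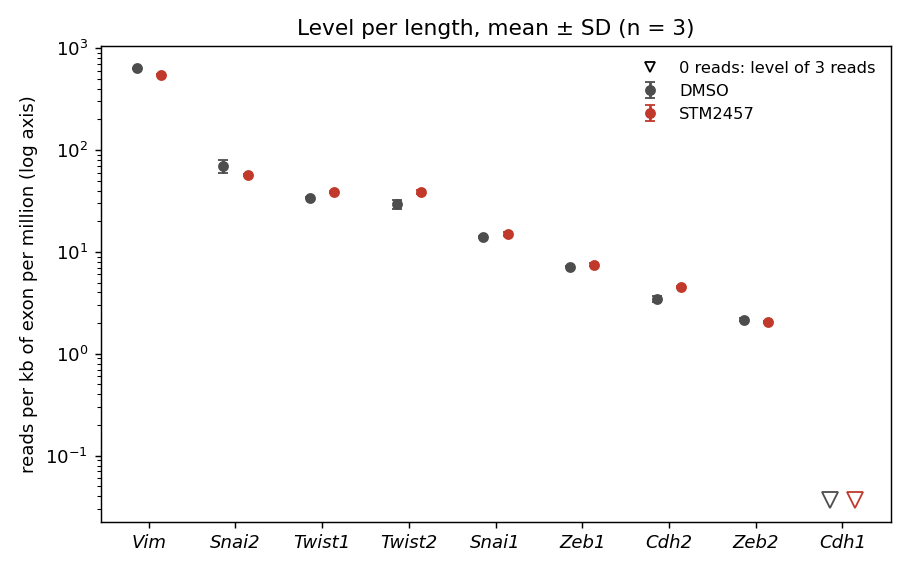
RPKM (y axis, log scale) for the 9 genes, as mean ± SD of the 3 libraries of each group; open triangles give the level of 3 reads for Cdh1, which had 0. Vim stands about an order of magnitude above Snai2, and the ZEB genes and Cdh2 are the lowest of those with reads.

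Within each pair of relatives the ratio of normalised reads was followed over the libraries. The log2 ratio of Snai1 to Snai2 was -2.44, -2.88 and -2.57 in DMSO and -2.26, -2.18 and -2.27 after STM2457. It rose by 0.39 with no overlap. For Zeb1 to Zeb2 it was 0.80, 0.72 and 0.76 in DMSO and 0.90, 0.83 and 0.98 after STM2457, a rise of 0.14, again with no overlap. For Twist1 to Twist2 it was -0.57, -0.90 and -0.74 in DMSO and -0.90, -0.90 and -1.03 after STM2457. It was lower by a difference of -0.20, and the groups overlapped. Exact permutation tests (two-sided, n = 3 per group) gave p = 0.1 for the SNAIL and ZEB pairs, the smallest that 3 against 3 allow, and p = 0.3 for the TWIST pair. Benjamini-Hochberg adjusted over the 3 pairs these exact values were 0.15, 0.15 and 0.3, so no pair passed. In the deposited log2 values the exact permutation test gave p = 0.1 for the TWIST pair too, with a difference of -0.119. The contrast between this pair and the others thus depends on the values used. The pair of cadherins has no ratio because Cdh1 had no reads.

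**Figure D4:**
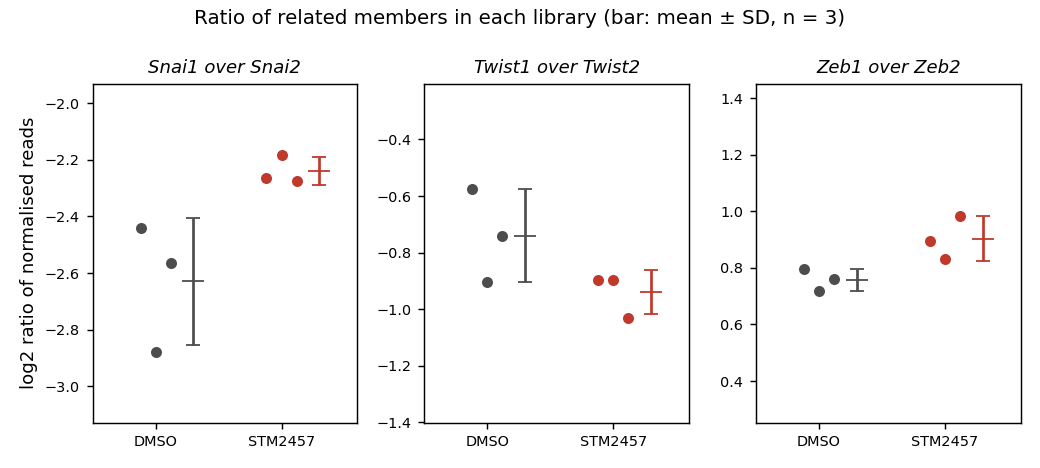
Log2 ratio of normalised reads (y axis) of Snai1 to Snai2, Twist1 to Twist2 and Zeb1 to Zeb2 in each library, with mean ± SD (n = 3); the panels have different axes of the same length. The Snai1 to Snai2 ratio shows the widest shift, from a mean of -2.63 to -2.24, and also the widest spread among the DMSO libraries.

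DMSO replicate 2 was the highest control for Snai2, Twist2, Zeb1 and Zeb2. For Cdh2 the highest was DMSO replicate 1, at 9.107 against 9.015 and 9.026 in deposited log2 values. In DMSO replicate 2, Snai2 was 0.175 above the mean log2 value of DMSO replicates 1 and 3, Twist2 0.111 above and Zeb2 0.038 above. Cdh2 was at -0.052, Snai1 at -0.036, Vim at -0.029 and Twist1 at -0.024. Mettl3 was 0.129 above. Without DMSO replicate 2 the same count of 5 genes passed, with Twist2 at a log2 difference of 0.27 and Cdh2 at 0.18. Without DMSO replicate 1 also 5 passed, with Snai2 at -0.214, Twist2 at 0.189 and Cdh2 at 0.23.

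The genes most like each of the 8 were sought by Pearson correlation of the deposited log2 values over the 6 libraries, among 10986 named genes. They were Mlf2 (r = 0.998) and Esr1 (0.981) for Snai1, P2rx3 (0.998) and Cant1 (0.994) for Snai2, Osbpl7 (0.999) and Pcbp1 (0.999) for Twist1, and Ddx27 (0.998) and Tmco4 (0.997) for Twist2. For Zeb1 they were Spsb1 (0.993) and Zfp62 (0.992), for Zeb2 Bora (0.992) and Ccdc107 (0.988), for Vim Odf2l (0.999) and H3f3a (0.998), and for Cdh2 Ercc5 (1.000) and Slc25a12 (0.998). With 6 libraries in 2 groups such values are common: 1457 genes had r over 0.95 with Twist1, 1216 with Cdh2 and 704 with Vim, against 26 with Snai1 and 27 with Zeb2. None of the 9 genes was among the closest to another.

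Other transcription factors of mesenchymal cells were measured beside the 9 genes. Of 17 listed, 16 were in the table and 9 were tested, of which 5 rose and 2 fell. The share that passed was 77.8%, against 56.3% of all tested genes. Prrx2, a homeobox factor of limb and craniofacial mesenchyme, rose 1.78-fold, from 150 ± 13.6 to 267 ± 8.84 normalised reads (SD over 3 libraries, limma adjusted p = 2.3e-08). Hmga2, a chromatin architectural factor, rose 1.13-fold. Sox9, a factor of cartilage and of several epithelia, fell from 135 ± 24.6 to 76.4 ± 6.15 (adjusted p = 1.6e-05). Tcf4, a basic helix-loop-helix partner of TWIST proteins, fell from 4395 ± 422 to 2943 ± 87.7 (adjusted p = 1.1e-06). Tcf4 was highest in DMSO replicate 2, at 4870.5 normalised reads.

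Epithelial genes were nearly silent. Of 37 genes for epithelial junctions and surface proteins, 10 had 0 reads in all libraries, 21 fell under the level filter and 6 were tested. Epcam, an epithelial adhesion molecule, had 0 reads. Krt8 had 0 to 3 and Krt18, its keratin partner, 0 to 8 reads per library. Of the 6 tested, 1 rose and 3 fell, or 66.7% against 56.3% of all tested genes. The desmosomal plakophilin genes Pkp3 (153 ± 16.1 to 81.4 ± 3.10 normalised reads) and Pkp2 (1144 ± 139 to 756 ± 63.9) fell, as did Tjp1 (0.923 of the DMSO level), while Ocln did not pass (limma adjusted p = 0.35). The call of Tjp1 was lost without STM2457 replicate 1 (adjusted p = 0.083).

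Of 16 epithelial transcription factor and splicing regulator genes, 6 had 0 reads, 5 fell under the filter and 5 were tested. Foxa1, a pioneer factor, rose from 22.7 ± 1.64 to 35.1 ± 4.53 normalised reads (limma adjusted p = 0.012), a call lost with centring on the upper quartile (0.17) or the median (0.12) and without STM2457 replicate 2 (0.073). Klf4 fell from 109 ± 29.7 to 76.4 ± 6.07 (adjusted p = 0.019), a call lost without DMSO replicate 2 (0.12), where it was highest at 142 normalised reads, and without STM2457 replicate 1 (0.061) or 3 (0.081). Foxa2, Elf3 and Klf5 did not pass (adjusted p = 0.29, 0.68 and 0.76).

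Genes for mesenchymal matrix and surface proteins were mostly well expressed, and they moved in both directions, as Twist2 and Vim did. Of 33 listed, 24 were tested, of which 12 rose and 7 fell, or 79.2% against 56.3% of all tested genes. Fn1, which encodes fibronectin, fell from 39887 ± 413 to 28361 ± 841 normalised reads, the secreted phosphoprotein gene Spp1 from 24870 ± 440 to 15513 ± 479, and Col3a1, for a fibrillar collagen chain, from 25528 ± 837 to 19144 ± 1002 (SD, n = 3). Mmp14, for a membrane-bound matrix protease, rose from 3942 ± 162 to 5665 ± 80.6, and the growth factor receptor gene Pdgfrb from 65.0 ± 5.71 to 166 ± 21.2, or 2.54-fold (limma adjusted p = 2e-09).

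In the cadherin family, 12 of 23 genes had 0 reads and 3 were tested: Cdh2, Cdh13 and Cdh24. All 3 passed as higher, against 30.7% of all tested genes. Cdh2 was the most abundant by reads. Cdh13, a cadherin held by a lipid anchor, rose 1.24-fold (101 ± 6.02 normalised reads with the solvent, 126 ± 7.85 with the inhibitor, limma adjusted p = 0.02), and Cdh24 from 60.3 ± 12.1 to 78.1 ± 9.06 (adjusted p = 0.037). Both calls were lost with centring on the upper quartile (0.15 and 0.22) or the median (0.11 and 0.17). That of Cdh13 was also lost without DMSO replicate 1 (0.051) or 3 (0.062) or STM2457 replicate 1 (0.055) or 3 (0.076). That of Cdh24 was lost without DMSO replicate 2 (0.14) or 3 (0.12) or STM2457 replicate 1 (0.078) or 2 (0.18). For Cdh24 the DMSO and STM2457 libraries also overlapped. Cdh3, the placental cadherin gene, lay under the filter, with 8, 10 and 6 reads in DMSO and 1 read in each STM2457 library. Without the filter it passed as lower (limma adjusted p = 5.6e-04).

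Cadherins hold cells together through catenins, which link their tails to actin. Of 20 listed catenin and adherens junction genes, 14 were tested, of which 7 rose and 1 fell, a share of 57.1% against 56.3% of all tested genes. Ctnnb1, which encodes beta-catenin, rose from 5707 ± 251 to 6530 ± 131 normalised reads (SD over 3 libraries, limma adjusted p = 1.3e-04). The alpha-catenin gene Ctnna1 (0.967 of the DMSO level, adjusted p = 0.26) and the p120-catenin gene Ctnnd1 (1.04-fold, adjusted p = 0.49) did not pass. Among the nectins, which start cell contacts, Nectin3 rose 1.39-fold and Nectin1 1.88-fold, from 56.6 ± 10.9 to 106 ± 8.57. Lima1, an actin-binding partner of alpha-catenin, rose 1.37-fold, Pkp4, of the p120 family, 1.29-fold, and Ctnnbip1, an inhibitor of beta-catenin, 1.38-fold.

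SNAIL, ZEB and TWIST proteins act with corepressors and other partners. Of 26 tested, 9 rose and 7 fell, a share of 61.5%, close to the 56.3% of all tested genes. With upper-quartile centring 7 were higher and 10 lower. Ajuba, a LIM protein that bridges SNAI1 to corepressors, rose from 1612 ± 72.7 to 2393 ± 42.4 normalised reads (limma adjusted p = 4.1e-11), its relative Limd1 1.44-fold, the arginine methyltransferase gene Prmt5 1.17-fold and Id3, an inhibitor of basic helix-loop-helix factors, 1.27-fold. Tcf4, named above, was among those that fell. Of 25 tested genes for the turnover of these proteins, 6 rose and 6 fell, or 48% against 56.3% of all tested genes. With upper-quartile centring 4 were higher and 12 lower. The ubiquitin ligase genes Fbxo11 and Siah2 fell to 0.744 and 0.777 of the DMSO level, the ligase gene Mdm2 rose 1.19-fold, and the deubiquitinase genes Usp10 and Usp3 changed to 1.305-fold and 0.83. Protein levels were not measured.

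Other intermediate filament and linker genes were measured beside vimentin. Of 10 tested, Vim included, 2 rose and 1 fell, or 30% against 56.3% of all tested genes, with 1 and 5 under upper-quartile centring. Lmna, for the A-type lamins, rose 1.16-fold (limma adjusted p = 2.3e-05). Plec, for the linker plectin, rose 1.07-fold (adjusted p = 0.03), a call lost with upper-quartile (0.38) or median centring (0.32), with eBayes without trend and robust priors (0.075), and when DMSO replicate 2 (0.12), STM2457 replicate 1 (0.058) or STM2457 replicate 2 (0.16) was left out. Des (adjusted p = 0.06) and Lmnb2 (0.079) did not pass. Des passed as higher in 4 alternatives and Lmnb2 as lower under both centrings. The exons of Ctnnb1, Ctnna1, Ctnnbip1, Fbxo11, Hmga2, Fn1, Elf3, Des, Hopx, Krt8, Krt5 and Cd3e overlap those of a gene running in the opposite direction, and the reads of the shared bases are uncertain. Those of Ctnnd1 overlap Gm28635, on the same strand, over 4482 of their 7319 bases, and those of Spp1, Col3a1, Usp10, Plec and Itgam overlap a gene on the same strand over fewer bases.

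Markers of other cell types were also measured. Of 12 lung epithelium markers, 5 had 0 reads (Nkx2-1, Krt5, Epcam, Sftpa1 and Sftpd), and the 2 tested, Hopx and Ager, did not pass (limma adjusted p = 0.61 and 0.91). The summed level was 9.11 to 9.62 CPM in DMSO and 9.10 to 10.6 after STM2457. Of 12 leukocyte markers 5 had 0 reads (Adgre1, Itgam, Cd3e, Nkg7 and Tyrobp), and the sum was 15.8 to 17.5 and 18.9 to 21.7 CPM, most of it from Cd14, which rose 1.34-fold, and Cd68. Endothelial markers summed to 0.283 to 0.34 CPM in DMSO and 0.224 to 0.502 CPM after STM2457, with 0 of 8 tested and 3 at 0 reads. Of 10 fibroblast markers 7 were tested, and 1, Pdgfrb, rose and 3 fell, Col3a1, Col1a2 (0.465 of the DMSO level) and Lum (0.289). The share that passed was 57.1%, close to the 56.3% of all tested genes. The summed level of the 10 markers was 1420 to 1530 CPM in DMSO and 1050 to 1170 CPM after STM2457. Nearly all of it came from Col3a1, and Thy1 and Tcf21 had 0 reads. Fibroblasts also express Vim, Twist1 and Twist2. The part of these markers in the results was not tested. In bulk RNA, fewer cells of a kind and less RNA per cell cannot be told apart.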

How the data were processed

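RNA was sequenced from 3 DMSO and 3 STM2457 libraries. The authors deposited log2 values, 1 per gene symbol and library, whose form, judged from the values alone, is that of a regularised log2 transform, which shrinks each gene towards its mean over the libraries. HISAT2 2.2.1, featureCounts 2.0.1 and FastQC 0.11.9 are named, with build GRCm38, per the submitters' processing notes. For the annotation, the settings and the use of strand, the sources used here give nothing. The equations of the transform were inverted with a ridge penalty, dispersion trend and size factors estimated from the values. They were chosen to bring recovered values close to whole numbers, so the shares of whole values below are no independent check. Of the recovered values of 17555 genes with a mean under 500 reads, 98.77% were whole to within 0.05 reads. From 500 to under 2000 reads the share was 89.56%, and above that 60.66%, the range in which Vim, Snai2 and other abundant genes lie.

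Of 24138 genes with a read, 12618 whose deposited values averaged 3.32 (log2 of 10) or more were tested with limma 3.58.1 in R 4.3.3 (eBayes with trend and robust priors, statmod 1.5.0), two-sided, adjusted by Benjamini-Hochberg over all of them, threshold 0.05. Folds and 95% intervals came from limma-voom on the recovered reads. The recovery and the fits were also run on reads simulated with the same estimated transform, which cannot show whether that transform is right. The 9 genes, the lists and the tests were chosen with earlier results of these data known. From each list the text names up to 5 tested genes of smallest adjusted p, plus Ctnnb1, Ctnna1, Ctnnd1, Epcam, Krt8, Krt18, Fn1, Cdh3 and Mettl3; Gm29100 was added for its overlap with Twist2, and the 2 genes of highest correlation with each tested gene are named as well. Of the genes this rule gives, 2 are not reported here. Markers named for having 0 reads were chosen after their values were seen. Gene positions come from GENCODE M21. Alternatives were other level filters, centrings and priors, limma-voom, the replicate number as a block and leaving out each library.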

Additional observations from a re-analysis of the deposited data

How the results depend on the processing

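Each of the 8 tested genes kept its direction under all 13 alternatives. Zeb2 passed as lower with upper-quartile (log2 difference -0.071, adjusted p = 0.034) and median centring (-0.065, 0.043). Leaving out 1 library at a time moved the log2 difference of Snai2 between -0.214 and -0.103, and its limma adjusted p between 4.1e-06 and 0.085. Other calls of the 8 genes did not change, and 4 to 5 passed without each library in turn. Of all tested genes 30.7% were higher and 25.7% lower. The lists hold 251 genes, the 9 included, and not all were tested. Outside the 9 genes, 46 list genes were higher and 27 lower. How many of these list genes were tested is not given here, so the counts cannot be set against those shares. With upper-quartile centring 43 were lower, with median centring 41; the cause was not tested. Deviations of same-numbered libraries from their group means correlated at 0.05, 0.011 and 0.04, and those of differently numbered ones at -0.056 to 0.022. Such small correlations cannot show whether the library numbers pair the samples. In a limma fit that blocked on replicate number, 5 of 8 genes passed, with Snai2 at an adjusted p = 0.00013, and 3864 genes were higher and 3226 lower overall. In the block, exact permutation p-values of the pair ratios were 0.25 for the SNAIL and ZEB pairs and 0.5 for the TWIST pair. The block allows no permutation p-value below 0.25. At the level of Cdh1 and Cdh3, depth limits what can be seen.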
